A study of Saccharomyces cerevisiae with 7 samples.

Results

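The ssn6 deletion and the tup1 deletion of budding yeast, Saccharomyces cerevisiae, were set against each other to find the genes and functions on which loss of one subunit had the stronger effect. The members were the samples titled as knockouts of SSN6 and of TUP1, which are 4 of the 7 samples of the series, 2 per genotype. The other 3 samples are wild type. All 7 have the background BY4742, a haploid laboratory strain of the alpha mating type, and were grown in YEP medium with 2% glucose to an OD600 of 0.8. One genotype lacks SSN6, whose standard gene symbol is CYC8, and the other lacks TUP1. The labels do not give how the deletions were made, how many clones they come from or whether replicates were separate cultures, so p-values cover only the variation among these arrays, possibly technical. Total RNA was measured on a one-colour Affymetrix array, and a level is the deposited log2 value of a gene's probe set, so that a difference of 1 is 2-fold.

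Ssn6 and Tup1 are subunits of one corepressor complex that binds no DNA by itself. DNA-binding repressors bring it to sets of promoters, such as those of a-specific genes in alpha cells, genes of anaerobic growth, genes repressed by glucose and genes of flocculation. Tup1 carries the histone-binding and much of the repressing activity, while Ssn6 links the complex to many of the DNA-binding proteins, and each subunit also has contacts of its own.

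The 2 ssn6 arrays resembled each other more than the 2 tup1 arrays did. The standard deviation of the difference between replicates over genes was 0.197 for ssn6 and 0.409 for tup1, against 0.449 to 0.587 between an ssn6 and a tup1 array. A background floor per array, the 95th percentile of 1746 fission yeast probe sets, lay between 5.50 and 5.67, and array medians of the genes lay between 10.95 and 11.06. In wild-type replicate 2 the 3' probe set for actin lay 2.845 above the 5' probe set, while that gap was 0.52 to 0.92 on each other array. In wild type the mean level of 5 alpha-specific genes was 12.39 to 12.70 and that of 7 a-specific genes 7.74 to 8.09, as the labelled mating type would have it.

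A few probe sets outside the genes tested differed widely between the deletions. Of 47 reporter probe sets, which stand for 29 sequences, 5 differed, 4 of the 5 probe sets of one sequence and 1 of another. These 5 read 3.67 to 5.08 on the ssn6 arrays, 8.66 to 13.89 on the tup1 arrays and 8.47 to 13.19 in wild type (limma adjusted p = 1.64e-06 to 0.00918). Another reporter probe set read 13.83 to 13.87 in ssn6 and 13.81 to 13.85 in tup1, against 4.11 to 4.49 in wild type. The sources used here do not name these sequences, and other genetic differences between the strains cannot be told apart from the deletions in any result that follows.

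Each deletion was checked first through its own gene. CYC8 read 5.62 and 6.07 in the ssn6 deletion and 11.56 and 11.43 in the tup1 deletion, a difference of −5.65 ± 0.18 (SE, ssn6 minus tup1, limma adjusted p = 1.58e-05). TUP1 read 11.81 and 11.90 in the ssn6 deletion, and 4.69 and 5.07 in the tup1 deletion, under the floor on both arrays there. It was thus at least 79.4-fold lower in the tup1 deletion (limma adjusted p = 9.2e-05). The sources used here do not give the extent of either deletion relative to the probes.

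Most of the genes that differed were higher in the ssn6 deletion. One limma model over all 7 arrays, in which wild type adds to the estimate of the spread, was fitted to 5449 genes and p-values were adjusted over all of them. At an adjusted p of 0.05, 131 genes differed (2.4% of those tested), 104 higher in ssn6 (1.91%) and 27 higher in tup1 (0.496%). At an unadjusted p of 0.05 there were 1039. Without CYC8 and TUP1, 103 genes were higher in ssn6 and 26 higher in tup1. Of these, 1 and 2 genes were under the floor on both arrays of the lower deletion and have only a lower bound. The size of the other differences was 0.77 to 5.66 towards ssn6 and 0.71 to 2.44 towards tup1. With the bounded genes at their bounds, the medians were 1.27 and 0.998, and differences of at least 4-fold numbered 13 and 4. Over all genes the lean was the other way, with a median difference of −0.07, and both tup1 arrays lay above both ssn6 arrays for 39.2% of genes, against 24.4% for the reverse.

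The number of genes called rested on having both ssn6 arrays. It was 13 without ssn6 replicate 1 and 5 without ssn6 replicate 2, and 30 without tup1 replicate 1. Without tup1 replicate 2 it was 195, without wild-type replicate 1 it was 62, and without wild-type replicate 2 it was 257. For all 131 genes the ssn6 and tup1 arrays did not overlap, so leaving out 1 array could not turn a sign. Several other fits leave the difference itself unchanged. In all 16 alternative fits the 131 genes kept the sign of their difference, which was thus largely fixed beforehand. CYC8, TUP1, THI22, MF(ALPHA)2 and UTR2 passed in each of those fits.

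**Figure D1:**
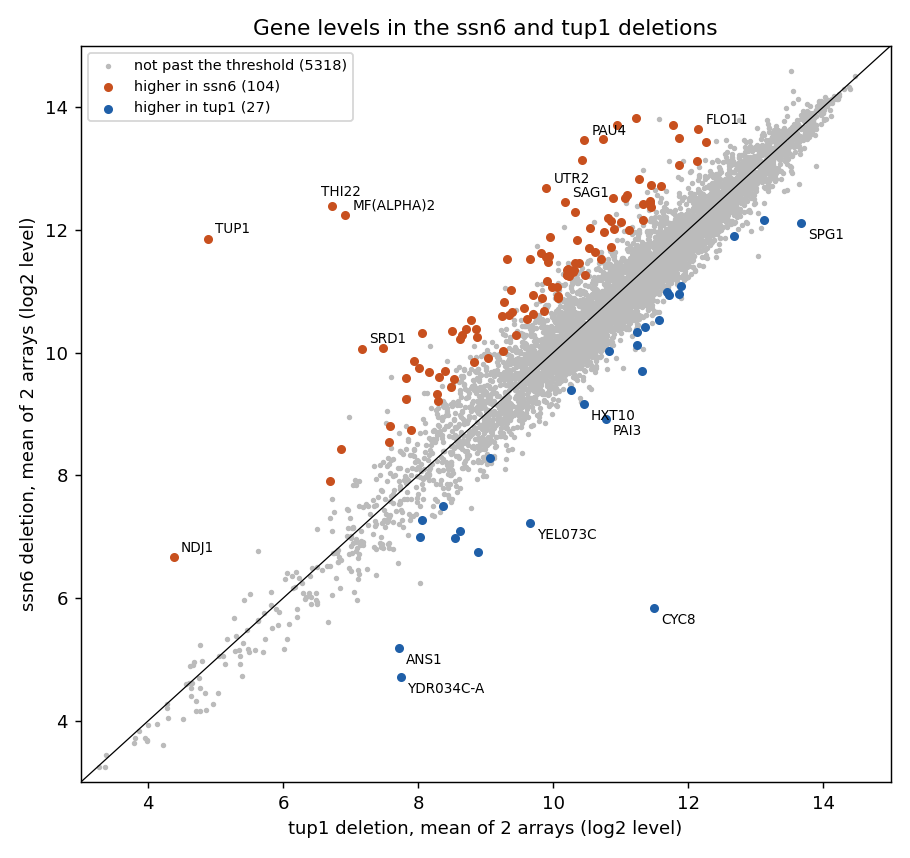
Mean log2 level of each of 5449 genes in the tup1 deletion (horizontal axis) and the ssn6 deletion (vertical axis), each a mean of 2 arrays, with the line of equal levels. Orange points are the 104 genes higher in ssn6 and blue points the 27 higher in tup1, and THI22 and MF(ALPHA)2 lie farthest above the line after TUP1.

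The wild-type level shows on which side the differences arose. Of the 103 genes higher in ssn6, 34 had both deletion means above wild type, 19 had both below, and for 50 the wild-type mean lay between. Of the 26 higher in tup1 the counts were 8, 5 and 13. The comparisons with wild type share the wild-type arrays, and they called 19.4% of genes in the ssn6 deletion (9.18% higher and 10.3% lower) and 23% in the tup1 deletion (10.4% higher and 12.6% lower). Among the 103 genes, 21 passed as higher than wild type in both deletions, 36 as higher in ssn6 with no call in tup1, 33 as lower in tup1 with no call in ssn6, 6 as higher in ssn6 and lower in tup1, and 3 as lower in both. The remaining 4 passed in neither comparison.

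Alpha-specific mating genes, those of the cells' own type, read lower in the tup1 deletion. Of 5 measured alpha-specific genes, 2 were higher in ssn6 and 3 did not pass, and the median difference was 1.89 against −0.07 for all genes. MF(ALPHA)2, one of a pair of genes for the pheromone alpha-factor, read 12.20 and 12.28 in ssn6, 6.76 and 7.07 in tup1 and 12.77, 12.83 and 12.79 in wild type. The 2 ssn6 arrays lay close under wild type and the tup1 arrays far below every other array. The gene was 40.0-fold higher in ssn6 than in tup1 (5.32 ± 0.15 on the log2 scale, limma adjusted p = 1.58e-05). SAG1, the alpha-agglutinin that binds a cells, read 12.39 and 12.52 in ssn6 and 10.48 and 9.86 in tup1, a difference of 2.28 ± 0.24 (adjusted p = 0.00663). The other alpha-factor gene, MF(ALPHA)1, read 12.02 and 12.08 in ssn6 and 9.49 and 10.83 in tup1, where the replicates lay far apart, and did not pass (1.89 ± 0.41, adjusted p = 0.0678). STE3, the receptor for a-factor (0.80, adjusted p = 0.0545), and AFB1, which binds a-factor (0.34, adjusted p = 0.395), did not pass. On all 5 genes both ssn6 arrays lay above both tup1 arrays. Over all genes 24.4% did so, and 1.91% were called higher in ssn6. Against wild type the list had medians of −0.55 in ssn6, where 2 genes fell, and −2.69 in tup1, where 5 fell. Without ssn6 replicate 1 or 2, 1 gene of the list passed between the deletions, and without wild-type replicate 2 or tup1 replicate 2, 3 passed.

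Genes specific to the opposite mating type read higher without Ssn6 than without Tup1. Against wild type all 7 a-specific genes rose with either deletion, with medians of 4.05 in ssn6 and 2.67 in tup1. Between the deletions 2 of the 7 passed, beside 1.91% of all genes called higher in ssn6, with a median difference of 1.22. Both ssn6 arrays lay above both tup1 arrays for all 7, against 24.4% of all genes. BAR1, the protease that degrades alpha-factor, read 9.88 and 9.86 in ssn6 and 8.03 and 7.84 in tup1, against 7.33, 7.39 and 7.08 in wild type. All 4 deletion arrays lay above wild type, the ssn6 arrays further, by 1.93 ± 0.16 over tup1 (limma adjusted p = 0.00339). STE2, the receptor for alpha-factor, read 12.10 and 12.28 in ssn6 and 10.99 and 10.63 in tup1, a difference of 1.38 ± 0.20 (adjusted p = 0.0207). The a-factor genes MFA1 (1.40, adjusted p = 0.0566) and MFA2 (1.22, adjusted p = 0.0547) and the agglutinin subunit gene AGA2 (0.99, adjusted p = 0.058) missed the threshold. ASG7 read 0.64 (adjusted p = 0.112), and STE6, the exporter of a-factor, read 0.11 with a 95% confidence interval of −0.41 to 0.63. The count of 2 became 1 without ssn6 replicate 1, without tup1 replicate 1 or without tup1 replicate 2, 0 without ssn6 replicate 2, 4 without wild-type replicate 2 and 3 without wild-type replicate 3.

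Genes that pheromone induces in mating cells gave calls in 1 direction. Of 19 measured, limma called 6 higher in ssn6 and 0 higher in tup1 (10 and 1 at an unadjusted p of 0.05), with a median of 0.54. The called shares of all genes were 1.91% and 0.496%. PRM1, a membrane protein of cell fusion, read 10.39 and 10.27 in ssn6 and 8.08 and 8.05 in tup1, with wild type between at 9.16, 9.23 and 8.40. The difference was 2.26 ± 0.28 (limma adjusted p = 0.0122). SST2, which desensitises cells to pheromone, read 9.66 and 9.83 in ssn6 and 8.13 and 7.89 in tup1, below the wild-type 10.67, 10.26 and 10.43 on all 4 arrays, and differed by 1.73 ± 0.18 (adjusted p = 0.0067). FUS1, another cell fusion gene, read 10.32 and 10.26 in ssn6 and 8.67 and 8.64 in tup1 and differed by 1.64 ± 0.24 (adjusted p = 0.0218). Groups did not overlap for these 3 genes. The agglutinin anchor gene AGA1 (1.24), the adhesin gene FIG2 (1.08) and PRM5 (1.04) passed as well. Of 11 genes expressed in haploids of both types, 2 passed, beside 1.91% of all genes called higher in ssn6. FAR1, which arrests the cell cycle during mating, differed by 1.74 ± 0.32 (adjusted p = 0.0461) and AXL1, the protease that matures a-factor, by 1.02 ± 0.13 (adjusted p = 0.0156), while STE4, the G protein beta subunit, read −0.01. Of the pheromone genes, 0 passed without either ssn6 array, 1 without tup1 replicate 1, 2 without tup1 replicate 2 and 4 without wild-type replicate 1. Of the haploid genes 0 passed without either ssn6 array or tup1 replicate 1, 1 without wild-type replicate 1 or 3, and 3 without wild-type replicate 2.

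**Figure D2:**
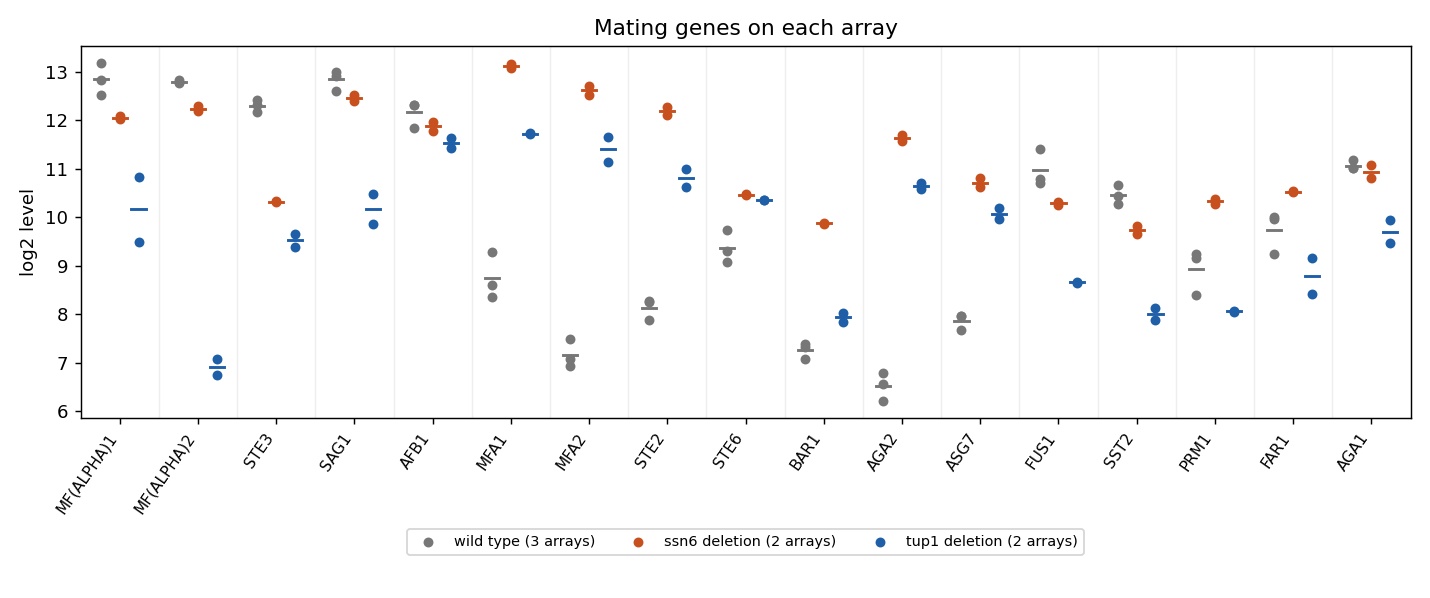
Log2 level of 17 mating genes on each array, with a point per array and a bar at the mean of a genotype; wild type is grey, ssn6 orange and tup1 blue. The first 5 genes are alpha-specific and the next 7 a-specific, and for MF(ALPHA)2 the tup1 arrays at 6.76 and 7.07 lie far below the other 5.

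Seripauperin (PAU) genes, a subtelomeric family of cell wall mannoproteins made under anaerobic conditions, stood higher in the ssn6 deletion. Against wild type 13 of 13 measured members rose in ssn6, with a median of 3.90, and 10 in tup1, with a median of 1.79. Between the deletions 6 were higher in ssn6, beside 1.91% of all genes, and the test left 7 uncalled, the median being 1.65. Both ssn6 arrays lay above both tup1 arrays for 12, against 24.4% of all genes. PAU4 read 13.41 and 13.51 in ssn6 and 10.18 and 10.75 in tup1, against 9.42, 10.05 and 9.93 in wild type. Its tup1 arrays lay little above wild type and its ssn6 arrays far above, with a difference of 2.99 ± 0.26 (limma adjusted p = 0.00339). PAU14 read 13.68 and 13.75 in ssn6 and 10.63 and 11.25 in tup1 and differed by 2.77 ± 0.24 (adjusted p = 0.00339). PAU8 (2.76 ± 0.34), PAU18 (2.59 ± 0.25), PAU17 (1.94 ± 0.14) and PAU2 (1.62 ± 0.30) passed too. PAU21 differed by 0.08 and did not pass. Members are close in sequence, so a probe set can take signal from a relative, and they are not independent of each other. Without ssn6 replicate 1, 3 PAU genes passed, and without ssn6 replicate 2, 0 did, while without wild-type replicate 2 the count was 9.

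Other cell surface genes split. The DAN and TIR genes encode mannoproteins that anaerobic cells put in their walls. All 8 measured ones had both ssn6 arrays above both tup1 arrays, against 24.4% of all genes, with a median of 0.66. But 1 passed, beside 1.91% of all genes, and this list shares PAU23 and PAU24 with the PAU genes. DAN1 read 13.39 and 13.48 in ssn6, 12.20 and 12.34 in tup1 and 7.08, 6.72 and 7.19 in wild type, far above wild type in both deletions, and differed by 1.16 ± 0.19 (limma adjusted p = 0.029). Of 4 flocculins, which are adhesins, 1 passed. FLO11, needed for filaments and biofilms, read 13.56 and 13.72 in ssn6 and 12.31 and 11.997 in tup1 and differed by 1.48 ± 0.18 (adjusted p = 0.0122), while FLO1 read −0.01 with a 95% confidence interval of −0.80 to 0.78. FLO8, of the filament regulator list, read 10.57 and 10.62 in ssn6 and 9.27 and 9.22 in tup1, with wild type between at 9.98, 9.74 and 9.88. FLO8 differed by 1.35 ± 0.14 (adjusted p = 0.0067), and any part in the FLO11 difference was not tested. It was the 1 of 12 filament regulators to pass (2 without wild-type replicate 2). DAN1, FLO11 and FLO8 did not pass without either ssn6 array, with adjusted p up to 0.298. DAN1 also lost its call without wild-type replicate 1 and without either tup1 array, and 3 DAN and TIR genes passed without wild-type replicate 2.

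UTR2, a chitin-linking enzyme of the cell wall, fell against wild type in the tup1 deletion and rose in the ssn6 deletion. It read 9.95 and 9.85 in tup1, 12.62 and 12.74 in ssn6 and 12.13, 12.03 and 11.89 in wild type. The tup1 arrays lay below and the ssn6 arrays above wild type, and the deletions differed by 2.78 ± 0.15 (6.84-fold, limma adjusted p = 0.000255). Among all genes 1.91% were called higher in ssn6 and 0.496% higher in tup1. Of 40 cell wall genes, with a median of 0.11, UTR2 was the 1 higher in ssn6, and 2 were higher in tup1. The latter are DSE1 and DSE2, both expressed in daughter cells, where they act in separation from the mother. DSE1 read 9.59 and 9.80 in ssn6 and 11.35 and 11.28 in tup1, within the range of the wild-type 11.65, 11.10 and 11.04, a difference of −1.62 ± 0.23 (adjusted p = 0.0187). DSE2 differed by −0.79 (adjusted p = 0.0461). Neither DSE gene passed without either ssn6 array or either tup1 array, the adjusted p reaching 0.191 for DSE1 and 0.36 for DSE2. DSE2 also failed without wild-type replicate 1 or 3.

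**Figure D3:**
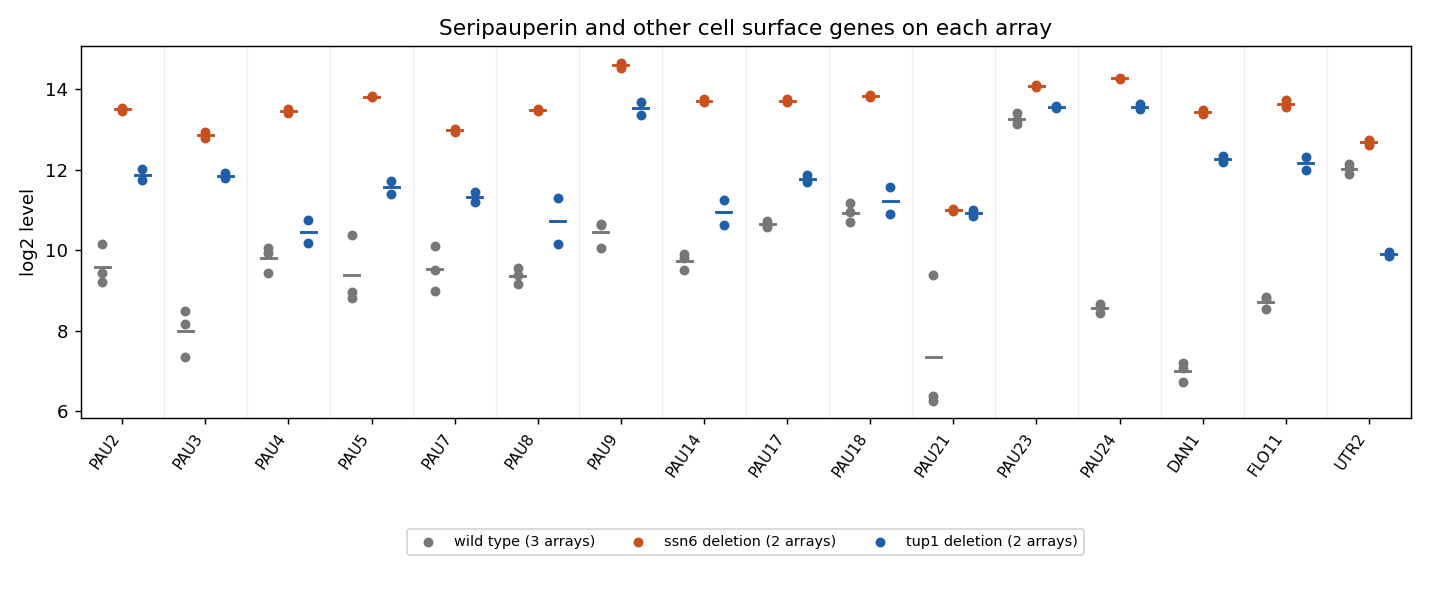
Log2 level of the 13 measured PAU genes and of DAN1, FLO11 and UTR2 on each array, with a point per array and a bar at the mean of a genotype. The ssn6 points (orange) lie above the tup1 points (blue) for all but PAU21, and UTR2 is the 1 gene with tup1 below wild type (grey).

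THI22, for a protein related to the kinases of thiamine synthesis, gave the widest difference after TUP1 itself. It read 12.35 and 12.42 in ssn6, 6.95 and 6.51 in tup1 and 10.61, 11.10 and 10.40 in wild type. The ssn6 arrays lay above wild type and the tup1 arrays far below it, so that the deletions differed 50.4-fold (5.66 ± 0.26, limma adjusted p = 0.000101). It was the 1 of 15 thiamine genes to pass (2 without tup1 replicate 2 or wild-type replicate 2), with a list median of 0.33, and its close relatives THI20 (0.42) and THI21 (0.23) did not. In the gene order of assembly R64, AXL1 follows THI22 among the genes tested and CTR1, a copper transporter gene, follows AXL1, and both were higher in ssn6. CTR1 differed by 1.56 ± 0.23 (adjusted p = 0.0215). Its call, and that of AXL1, was lost without ssn6 replicate 1, ssn6 replicate 2 or tup1 replicate 1, with adjusted p up to 0.211. For CTR1 it was also lost without wild-type replicate 1 or tup1 replicate 2.

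SRD1, RFU1 and NDJ1 were lower on both tup1 arrays than on every other array. SRD1, which acts in rRNA processing, read 6.51 and 7.82 in tup1, 9.99 and 10.15 in ssn6 and 10.72, 10.74 and 10.65 in wild type, and differed by 2.90 ± 0.37 (limma adjusted p = 0.0143). RFU1, an inhibitor of the deubiquitinase Doa4, read 7.17 and 7.81 in tup1 and 10.01 and 10.14 in ssn6, the latter within the wild-type range, and differed by 2.59 ± 0.25 (adjusted p = 0.00544). NDJ1, a meiotic telomere protein, read 4.34 and 4.42 in tup1, under the floor, and 6.71 and 6.62 in ssn6. It was at least 2.17-fold higher in ssn6 (adjusted p = 0.0262). None of these 3 passed without either ssn6 array, with adjusted p up to 0.204, and NDJ1 also failed without either tup1 array. YGR109W-B, which the tables used here leave unnamed, read 11.53 and 11.53 in ssn6 and 9.25 and 9.39 in tup1, on either side of the wild-type 9.99, 10.41 and 9.94 (2.21 ± 0.19, adjusted p = 0.00339). YIL082W-A, also unnamed, differed by 2.72 ± 0.37 (adjusted p = 0.0169). YGR109W-B lost its call without ssn6 replicate 2 (adjusted p = 0.0548), and YIL082W-A without any 1 of the 4 deletion arrays.

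Some cyclins and cell cycle regulators were higher in the ssn6 deletion. Of 25 measured, limma called 5 higher in ssn6 and 0 higher in tup1 (13 and 1 at an unadjusted p of 0.05), with a median of 0.45. Among all genes 1.91% and 0.496% were called. CLN2, a G1 cyclin, read 10.73 and 10.93 in ssn6 and 9.25 and 9.30 in tup1, and wild type at 10.34, 10.65 and 10.20 lay closer to ssn6. The difference was 1.55 ± 0.18 (limma adjusted p = 0.0113). PCL1, a cyclin of the kinase Pho85, differed by 1.51 ± 0.27 (adjusted p = 0.0388). The repressors of cell cycle genes YHP1 (1.42) and YOX1 (0.94), and CDC20, an activator of the anaphase-promoting complex (0.84), passed as well. CLB5, an S-phase cyclin, read −0.07. Of the whole list of 25, 0 passed without either ssn6 array or tup1 replicate 1, 1 passed without tup1 replicate 2 and 3 without wild-type replicate 1.

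Genes for taking up sulfate, iron, copper, zinc and sterols gave a few calls each, all higher in ssn6, as 1.91% of all genes were. Of 25 sulfur and methionine genes 3 passed, with a median of 0.63, MET14 (1.67 ± 0.22, limma adjusted p = 0.0169) and MET16, enzymes of sulfate activation and reduction, and the sulfate transporter gene SUL1. The mean of the list was 11.37 and 11.34 on the ssn6 arrays and 11.04 and 10.37 on the tup1 arrays, and without tup1 replicate 2 its median was 0.20. Of 29 iron genes 3 passed with a median of −0.04, the reductase genes FRE1 (1.27) and FRE3 (1.27) and the iron permease gene FTR1 (1.06). Of 19 copper and zinc genes 3 passed with a median of 0.14, the zinc transporter gene ZRT1 (1.63 ± 0.23, adjusted p = 0.0185), CTR1 (1.56) and the reductase gene FRE7 (1.21). Of 8 sterol uptake genes 2 passed, ECM22, a regulator of sterol synthesis (1.22), and the sterol importer gene AUS1, which was 2-fold higher in ssn6 (adjusted p = 0.0457). Against wild type AUS1 rose in both deletions, and ECM22 rose in ssn6 and fell in tup1. Without either ssn6 array 0 genes of these 4 lists passed. Without tup1 replicate 1, 2 sulfur genes and 0 of the other lists passed, and without wild-type replicate 1 or tup1 replicate 2, 1 sulfur gene, 1 sterol gene and 2 copper and zinc genes. Of the iron genes, 2 passed without wild-type replicate 1 and 4 without tup1 replicate 2. AUS1 also failed without wild-type replicate 3, leaving 1 sterol gene.

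For genes of ribosome production the difference between the deletions came largely with 1 array. The mean of 56 ribosome biogenesis genes was 10.79 and 10.76 on the ssn6 arrays. It was 9.67 on tup1 replicate 1, the lowest, and 10.72 on tup1 replicate 2. The wild-type means, 11.42, 11.45 and 11.13, lay above those of every deletion array. Against wild type the list had medians of −0.55 in ssn6, where 1 gene fell, and −1.09 in tup1, where 32 fell. Of all genes 10.3% and 12.6% fell. Between the deletions the picture was as follows. The median difference was 0.60 and 1 gene passed, UTP22 of the small subunit processome (0.81, limma adjusted p = 0.0483), which failed without wild-type replicate 1 or 3 or without any 1 of the deletion arrays. Without tup1 replicate 1 the median was 0.01 and 0 passed, and without tup1 replicate 2 it was 1.12 and 14 of the list passed. For 128 ribosomal protein genes the means were 13.17 and 13.18 in ssn6 and 12.63 and 13.15 in tup1, and limma called 0 (9 at an unadjusted p of 0.05), while 19 passed without tup1 replicate 2. Of 13 RNA polymerase I genes 2 passed, RRN7 (1.04, adjusted p = 0.0483) and RRN11 (0.85, adjusted p = 0.0461), and 0 without wild-type replicate 1 or 3. Among all genes 1.91% were called higher in ssn6, and 1 of 56 biogenesis genes is near that share. The median of that list was 0.67, and 0.27 without tup1 replicate 1. The mean of 19 rRNA control probe sets was 6.70 on tup1 replicate 1, the lowest of the 7 arrays, against 9.06 on tup1 replicate 2 and 8.48 and 7.37 on the ssn6 arrays. Its part in the result was not tested.

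Fewer genes were higher in the tup1 deletion, and 2 of them were under the floor on both ssn6 arrays. YDR034C-A, unnamed in the tables used here, read 7.42 and 8.06 in tup1, 5.17 and 4.26 in ssn6 and 4.41, 4.62 and 4.64 in wild type. It was at least 4.46-fold higher in tup1 (limma adjusted p = 0.0067). ANS1 read 7.51 and 7.92 in tup1 and 5.22 and 5.16 in ssn6, with wild type at 5.65, 6.14 and 5.41, and was at least 4.39-fold higher (adjusted p = 0.00663). Both genes thus rose with loss of Tup1 and stayed at or near the floor on the ssn6 and wild-type arrays. YEL073C, also unnamed, read 7.28 and 7.17 in ssn6 and 9.59 and 9.74 in tup1, the latter near the wild-type 9.53, 8.96 and 9.97 (−2.44 ± 0.30, adjusted p = 0.0122). YDR034C-A lost its call without ssn6 replicate 2 (adjusted p = 0.0548), and ANS1 and YEL073C without either ssn6 array, YEL073C also without tup1 replicate 1.

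Metabolic and stress genes made up part of the remainder. PAI3, an inhibitor of the vacuolar proteinase A, read 10.52 and 11.04 in tup1 and 9.01 and 8.82 in ssn6, against 8.05, 8.43 and 8.10 in wild type (−1.86 ± 0.22, limma adjusted p = 0.0113). SPG1, needed for survival in stationary phase, read 13.66 and 13.69 in tup1, 12.11 and 12.13 in ssn6 and 10.66, 11.17 and 10.38 in wild type (−1.55 ± 0.25, adjusted p = 0.0283). HXT10, a hexose transporter gene, read 10.56 and 10.35 in tup1 and 9.39 and 8.94 in ssn6, and 6.50, 6.46 and 6.67 in wild type (−1.29 ± 0.19, adjusted p = 0.0218). In these 3 genes both deletions rose above wild type, tup1 further. ARO9, an aminotransferase of aromatic amino acid breakdown, lay below the wild-type 12.45, 12.54 and 12.08 in both, at 11.38 and 11.10 in tup1 and 10.28 and 9.99 in ssn6 (−1.11 ± 0.21, adjusted p = 0.0466). The kinase gene KIN82 (−1.03), the meiotic gene ZIP2 (−1.03), the mannoprotein gene HPF1 (−0.96) and the transporter gene AQR1 (−0.90) passed too. Other members of these lists went the other way. PDC5, listed with ARO9 (1.29, adjusted p = 0.0376), and ATR1, listed with AQR1 (1.02, adjusted p = 0.0432), were higher in ssn6. The 17 hexose transport genes had a median of 0.39, and both ssn6 arrays lay above both tup1 arrays for 10 and below for 4. Over all genes the shares above and below were 24.4% and 39.2%. The 27 genes higher in tup1 became 2 and 1 without ssn6 replicate 1 and 2, 5 without tup1 replicate 1, 9 without wild-type replicate 1 and 91 without wild-type replicate 2.

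**Figure D4:**
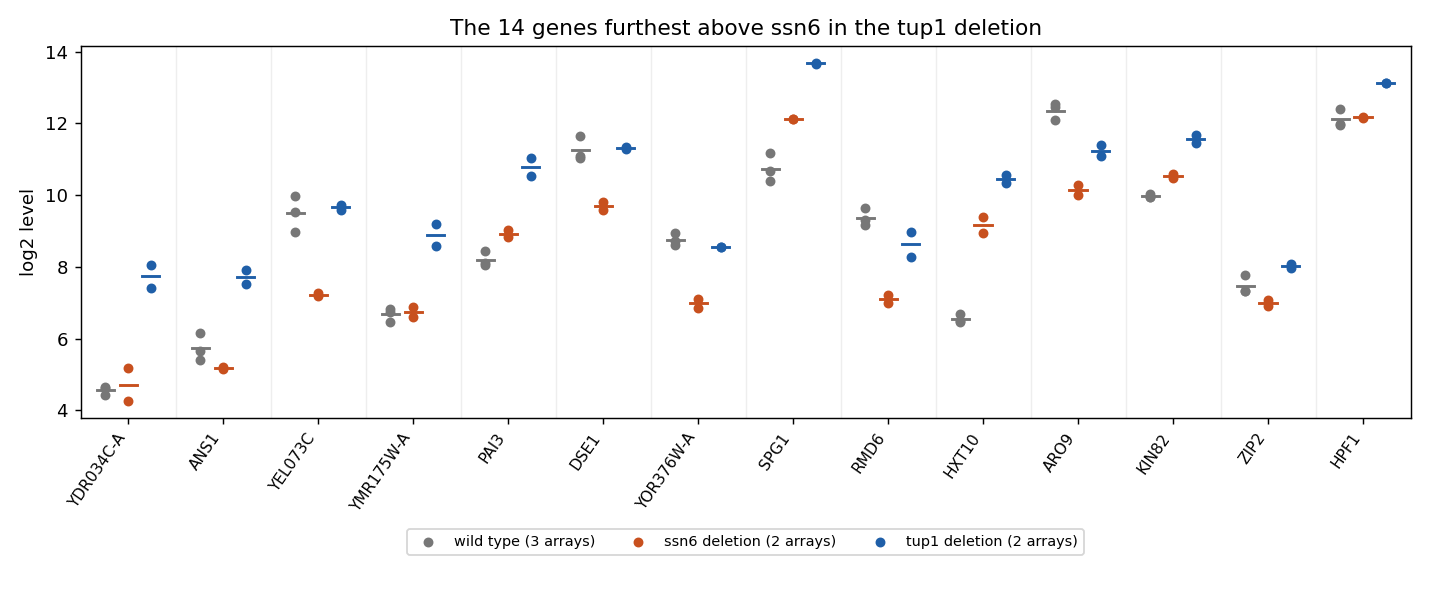
Log2 level on each array of the 14 genes with the widest fitted difference towards tup1 other than CYC8, of which YDR034C-A and ANS1 are under the floor in ssn6, with a point per array and a bar at the mean of a genotype. The tup1 points (blue) lie above the ssn6 points (orange) for all 14, and wild type (grey) lies with tup1 for YEL073C and DSE1 and with ssn6 for YMR175W-A and HPF1.

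Small shifts towards tup1 ran through several groups with few or no genes past the threshold. Both tup1 arrays lay above both ssn6 arrays for 51 of 72 mitochondrial ribosomal protein genes (70.8%, against 39.2% of all genes), with a median of −0.23, and limma called 0 of them (16 at an unadjusted p of 0.05). The same held for 17 of 23 general stress genes (73.9%, median −0.22), of which SPG1 passed, and for 8 of 9 histone genes (88.9%, median −0.20), of which 0 passed (3 at an unadjusted p of 0.05). Against wild type the medians in ssn6 and tup1 were −0.27 and −0.04 for mitochondrial ribosomal protein genes, where 10 and 0 fell. They were 0.66 and 0.85 for stress genes and −0.15 and 0.06 for histone genes. The 24 early meiosis genes had a median of −0.41, with both tup1 arrays above for 13 (54.2%). Among them NDJ1 was called higher in ssn6 and ZIP2 higher in tup1 (2 and 6 at an unadjusted p of 0.05). Members of such groups vary together, so these shares are descriptions.

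Several functions of sugar and fatty acid use gave no call between the deletions. Among all genes 2.4% were called between them, so counts of 0 in lists this small say little. Against wild type 9.18% of all genes rose in ssn6 and 10.4% in tup1. All 6 measured genes of the subtelomeric polyol cluster rose against wild type in both deletions, with medians of 6.10 in ssn6 and 5.89 in tup1. Between the deletions limma called 0 of them (0 at an unadjusted p of 0.05). HXT13, a transporter gene of that cluster, read 13.83 and 13.77 in ssn6 and 13.69 and 13.55 in tup1 and differed by 0.18 with a 95% confidence interval of −0.20 to 0.55. For HXT15, of the same cluster, the interval was wider, from −0.97 to 2.12. Of 9 maltose genes, with medians against wild type of 2.29 in ssn6 and 1.76 in tup1, 0 passed (3 unadjusted) with a median of 0.53, the maltase gene MAL32 reading 0.60 with an interval of 0.20 to 1.003 (limma adjusted p = 0.126). Of 27 genes for nonfermentable carbon (0.69 and 1.06 against wild type, where 8 and 12 rose) 0 passed (6 unadjusted) with a median of −0.13, PCK1 of gluconeogenesis reading −0.82 with an interval of −1.22 to −0.41 (adjusted p = 0.0622). Of 18 genes for peroxisomal fatty acid oxidation (0.80 and 1.38, where 8 and 11 rose) 0 passed (2 unadjusted) with a median of −0.23, and CTA1, the peroxisomal catalase, had an interval of −1.03 to 0.999. For 9 galactose genes (0.39 and 0.98, where 3 and 5 rose) the median was −0.31 and 0 passed (3 unadjusted). Of all 55 lists, 29 had a member that passed and 26 had none, and 69 of the genes called belonged to no list.

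**Figure D5:**
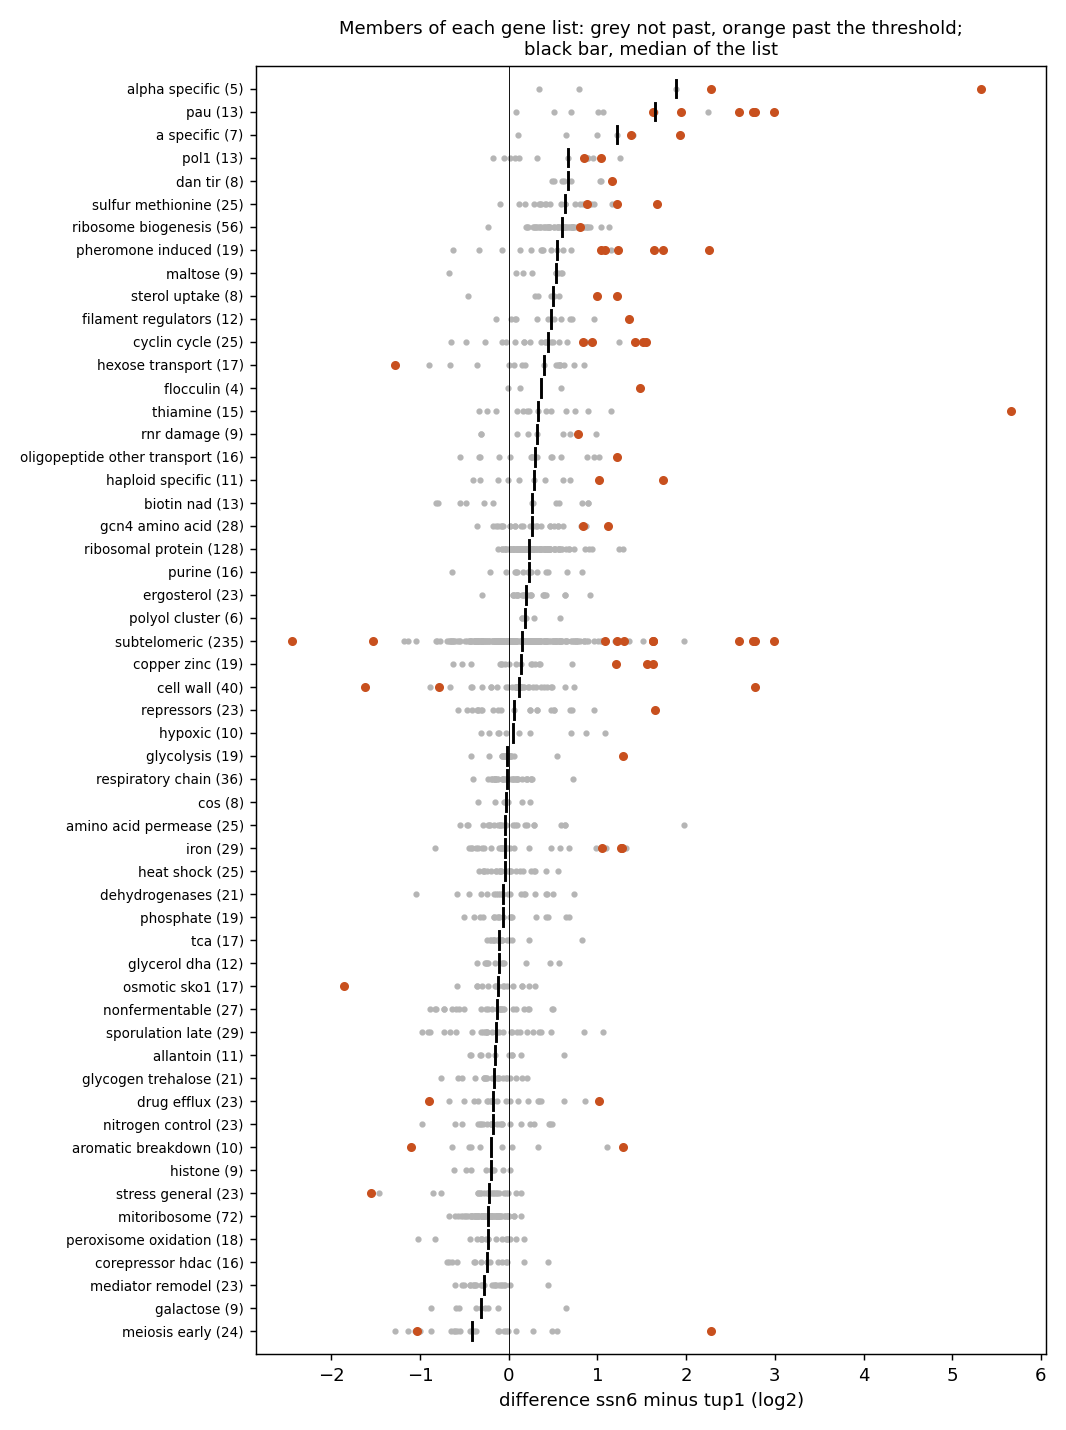
Difference between the deletions (ssn6 minus tup1, log2) of each measured member of 55 gene lists, with a point per gene, orange where it passed the threshold, and a black bar at the list's median. The alpha-specific list has the highest median, 1.89, followed by the PAU genes at 1.65, and the early meiosis list has the lowest, −0.41.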

How the data were processed

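Total RNA of 7 samples was measured on 1 array each. The deposited values are log2 levels per probe set; the submitters' processing notes name RMA and limma and give neither role nor version. Such values compress fold changes of dim genes, and their scaling between arrays was kept as the authors deposited it. Of 10928 probe sets 5498 have 1 budding yeast gene, from the platform annotation, with 12 symbols updated through a table of assembly R64, and 5449 genes were tested. Where a gene had several probe sets (47 genes), the one with the highest mean was used.

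Using limma 3.58.1 under R 4.3.3, lmFit estimated genotype means from the 7 arrays together and eBayes moderated the spread (4 residual and 3.19 prior degrees of freedom). Tests were two-sided with a threshold of 0.05 after Benjamini-Hochberg adjustment across the 5449 genes, and the procedure was tested on simulated data. Errors are moderated standard errors, with a median of 0.20 over genes, and the number of arrays limits the precision. Where both arrays of a deletion read under the floor, the fold is a lower bound against the floor. Genes named are drawn from CYC8, TUP1, the 15 widest differences of each sign among genes called without overlap between the groups, up to 5 called members per list, and, for contrast, other list members. Not all of them are described in the text. Members, lists and tests were chosen with earlier results of these data known. Replicate numbers were not used as pairs in the main fit. Deviations of the deletion arrays with the same number correlated at −0.27. With 2 arrays per deletion the crossed value, 0.27, is its mirror image, so these values cannot decide on pairing. Lists were described by counts and medians. Python 3.11.15 with matplotlib 3.10.9 drew the figures. Promoter motifs were not searched, since no promoter sequence was used here.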

Additional observations from a re-analysis of the deposited data

Results flagged for a closer look

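Probe sets outside the genes tested carried signal that differed between the deletions. Of 47 reporter probe sets, 5 differed, lower on both ssn6 arrays than on both tup1 arrays and on wild type, with the size of the difference between 5.52 and 8.95 on the log2 scale in a limma fit over all 10928 probe sets. The sources used here do not name their sequences. Of 3470 further probe sets with no gene in the tables used, 2 differed. One read 11.66 and 11.62 in ssn6, 9.63 and 9.88 in tup1 and 7.23, 6.96 and 7.02 in wild type, a difference of 1.89 ± 0.14 (limma adjusted p = 0.00199). The other read 10.41 and 10.30 in ssn6 and 11.43 and 11.28 in tup1, a difference of −0.997 ± 0.13 (limma adjusted p = 0.0195).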

How the results depend on the processing

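All 131 genes that differed kept their sign in all 16 alternative fits, and of the 69 named genes none reversed. The lack of overlap between their ssn6 and tup1 arrays largely fixed this beforehand. The number of calls moved widely. The total was 412 with array weights (263 higher in ssn6 and 149 in tup1), 58 with the replicate number as a block (48 and 10) and 25 at an adjusted p of 0.01 (20 and 5). Leaving out 1 array at a time gave 5 to 257 calls, 4 to 171 higher in ssn6 and 1 to 91 higher in tup1. The genes higher in tup1 numbered 53 with only the 4 deletion arrays and 44 after quantile normalization. The crossed pairing, ssn6 replicate 1 with tup1 replicate 2, was chosen after seeing the data and gave 173 calls. Whether the numbers that the block follows, crossed or not, pair these samples is not known. Array weights gave both ssn6 arrays 3.65 and both tup1 arrays 0.61. The cause of these moves was not tested, except that a fit without an array rests on fewer samples and takes the lone array of a genotype to vary like the others. Promoter motifs were not run. The 2 arrays per deletion limit every value here, and 36 to 70 genes per array lay under the floor.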

Other observations

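Some of the genes that differed lay side by side. In the gene order of assembly R64, counting the genes tested, 8 neighbouring pairs were both called, and the signs were equal in each pair. They were SNO1 with SNZ1, whose products make the vitamin B6 cofactor, SQT1 with GAT4, YLR460C with PAU4, YIL082W-A with AIR1, THI22 with AXL1 and AXL1 with CTR1, all higher in ssn6, and YEL073C with RMD6 and RMR1 with ZIP2, higher in tup1. Pairs outside the rule for named genes were named after their values were seen. How many pairs would arise by chance was not worked out. Of 131 genes called 104 were higher in ssn6, so equal signs are common. Median differences per chromosome lay between −0.12 (IV) and 0.02 (I), so no whole chromosome stood apart. The subtelomeric list holds the 10 outermost genes per chromosome arm. Its called genes include PAU4, PAU8, PAU14 and PAU18, so it is not separate from the PAU genes. Of its 235 genes, 9 were higher in ssn6 and 2 in tup1, beside 1.91% and 0.496% of all genes, with a median of 0.15. These counts were 2 and 0 without ssn6 replicate 1, 0 and 0 without ssn6 replicate 2, 4 and 0 without tup1 replicate 1, 6 and 1 without wild-type replicate 1, and 14 and 2 without wild-type replicate 2.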
